A study of Rattus norvegicus with 4 samples.

Results

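The 9 genes described here act in DNA replication and cell division: Tacc3, Spc24, Cks1b, Cks2, Pcna, Prc1, Gmnn, Ccnd1 and Top2a. They were taken by symbol, with every probe set annotated to them, and all 9 were found among the 13810 genes named on the study's array designs. The samples were rat cochlear lateral wall, from the upper basal turn by one label field and from the second turn without the stria vascularis by another, taken after an infusion at the round window of the left ear. The groups were 300 mM 3-NP (3-nitropropionic acid, an inhibitor of mitochondrial succinate dehydrogenase) at day 1, saline at day 1, 300 mM 3-NP at day 3 and saline at day 3. All 4 groups were female Sprague-Dawley rats of 180 to 210 g, aged 8 to 10 weeks, whose right cochlea had been surgically destroyed. Each group had 1 array, so no difference below has a replicate check or a p-value, and the sources used here do not say how many animals an array stands for.

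A dividing cell copies its DNA in S phase and separates the copies in mitosis, and the genes for these steps are switched on together for a short part of the cycle. Most cells of an adult tissue rest outside the cycle, so their RNA holds little of the mitotic genes. In the cochlear lateral wall the spiral ligament fibrocytes, which recycle potassium towards the endolymph, are known in rodents to divide to some extent after damage. Many mitotic genes carry in their promoters a CHR, the cell cycle genes homology region, which is read by the repressing DREAM complex in resting cells and by activating complexes with B-Myb and FoxM1 later in the cycle. It often lies downstream of CCAAT boxes, the sites of the factor NF-Y.

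The RefSeq promoter table for rat, build GRCr8, held 8 of the 9 genes, and Ccnd1 was not matched. Each entry runs from 250 bases before a transcript's start to 50 after it. A CHR, spelled TTTGAA or TTCGAA on either strand, was found in 5 of the 8: Tacc3, Cks1b, Cks2, Prc1 and Top2a. A CCAAT box, CCAAT on either strand, was found in 8 of 8. The following stretches are shown because genes that lay on opposite sides in the arrays hold the same elements. Capitals mark the CHR (TTTGAA, or TTCAAA where it lies on the other strand) and, in Spc24, Cks2 and Cks1b, the CCAAT boxes (CCAAT or ATTGG).
Tacc3, chr14:81289723-81289752, minus strand: caactctcggtaTTTGAAtctggggcgggc
Spc24, chr8:28581342-28581370, minus strand: cgtaggaacgatCCAATgagtcttaggct
Cks2, chr17:13727520-13727659, minus strand: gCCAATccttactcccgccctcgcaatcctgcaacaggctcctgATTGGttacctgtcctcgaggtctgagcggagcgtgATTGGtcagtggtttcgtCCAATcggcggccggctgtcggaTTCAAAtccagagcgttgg
Cks1b, chr2:177135334-177135473, minus strand: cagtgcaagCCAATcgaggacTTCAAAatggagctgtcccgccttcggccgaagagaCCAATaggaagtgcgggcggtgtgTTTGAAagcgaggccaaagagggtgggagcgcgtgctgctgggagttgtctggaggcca
Prc1, chr1:143659451-143659480, plus strand: cctccggctcggTTTGAAttccgcggggtc

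The CHR of Prc1 began 18 bases before the start, that of Cks2 19 bases, the nearer of 2 in Top2a 22, that of Tacc3 42 and the nearer of 2 in Cks1b 59. In each of these 5 genes at least 1 CCAAT box lay further upstream than that CHR. The nearest of these began at position -42 in Cks2, -50 in Prc1, -57 in Top2a, -70 in Tacc3 and -83 in Cks1b. Spc24, Pcna and Gmnn held CCAAT boxes and no CHR of these letters. An E2F site, spelled TTTCGCGC or TTTGGCGC on either strand, was found in Gmnn alone of the 8, from 39 to 46 bases after the start. For Tacc3, Spc24, Prc1 and Gmnn the table's start lies 196, 182, 169 and 74 bases inside the gene record, so the window may lie within a longer transcript.

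Over all 33469 promoters in the table, 19.7% held a CHR, 37.5% a CCAAT box and 7.95% both, and 0.792% held the E2F site. Among the other genes of chromosome structure, kinetochore, spindle and cytokinesis listed below, 26 of 45 promoters held both CHR and CCAAT box (57.8%). Among the other genes of mitotic entry and exit, 12 of 23 did (52.2%), and among the other replication genes 5 of 40 (12.5%). These are matches of letters and no measure of binding.

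The values are MAS5 signals, a brightness per probe set on a linear scale. The pairs lie on separate array designs, so each day was read on its own: 11 probe sets of 7 of the genes are on the day 1 design and 4 probe sets of 3 genes on the day 3 design. Tacc3 is the gene on both, through different probe sets. A ratio below is log2 of 3-NP over saline minus that of the median gene, which was 0.44 at day 1 and 0.10 at day 3. Dim signals were raised to a floor, the 30th percentile of their array: 22.0 in 3-NP and 17.1 in saline at day 1, and 9.85 in 3-NP and 9.22 in saline at day 3. A ratio with 1 signal at the floor is a bound, and one with both there has no value. A probe set passed the filter when it reached the median signal of at least 1 array of its pair, and the brightest passing probe set stands for its gene.

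At day 1 the 9-gene list went both ways. The CDK-binding subunit genes Cks2 and Cks1b and the replication clamp gene Pcna were at least 2-fold higher in 3-NP, while the spindle gene Tacc3 and the kinetochore gene Spc24 were more than 6-fold lower, all relative to the median gene. Ccnd1 lay near the median gene, and Top2a exceeded neither floor. Of 6 genes that passed the filter, 3 were at least 2-fold higher and 2 lower, against backgrounds of 7.76% higher and 6.47% lower among 6533 measured genes (17.9% and 2.62% as deposited). Of these 6, 4 passed through 1 array only, which favours large differences, so the counts are no result about the list.

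Tacc3 encodes a spindle protein that recruits the microtubule polymerase encoded by Ckap5. Its day 1 probe set had a signal of 15.0 in 3-NP, under the floor, and 145 in saline. The saline signal lay above 78.7% of that array's probe sets and the 3-NP signal above 23.0%. Relative to the median gene Tacc3 was at least 8.89-fold lower in 3-NP, a log2 bound of -3.15. Tacc3 passed the filter through the saline array alone, which favours large differences. It lay in the dimmest of 5 equal bins of signal, where 10.9% of measured genes were at least 2-fold lower. Its partner gene Ckap5 had 196 in 3-NP and 138 in saline, a relative log2 ratio of 0.06.

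Spc24 encodes a subunit of the NDC80 complex, which ties kinetochores to microtubules. Its signal was 36.2 in 3-NP and 178 in saline, both above the floor. The relative log2 ratio was -2.73, or 6.65-fold lower. With the measured genes in 5 equal bins of signal, 5.05% of those in its bin, next to the dimmest, were at least 2-fold lower. Spc25, which encodes the direct partner of Spc24, did not exceed either floor, with 13.4 in 3-NP and 12.0 in saline, so the pair cannot be compared. The Tacc3 bound lay 0.42 below the Spc24 ratio, within the technical SD of a difference between probe sets at day 1, 0.50. Tacc3 and Spc24 were therefore not put in order, and the Tacc3 value moves with the floor.

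**Figure D1:**
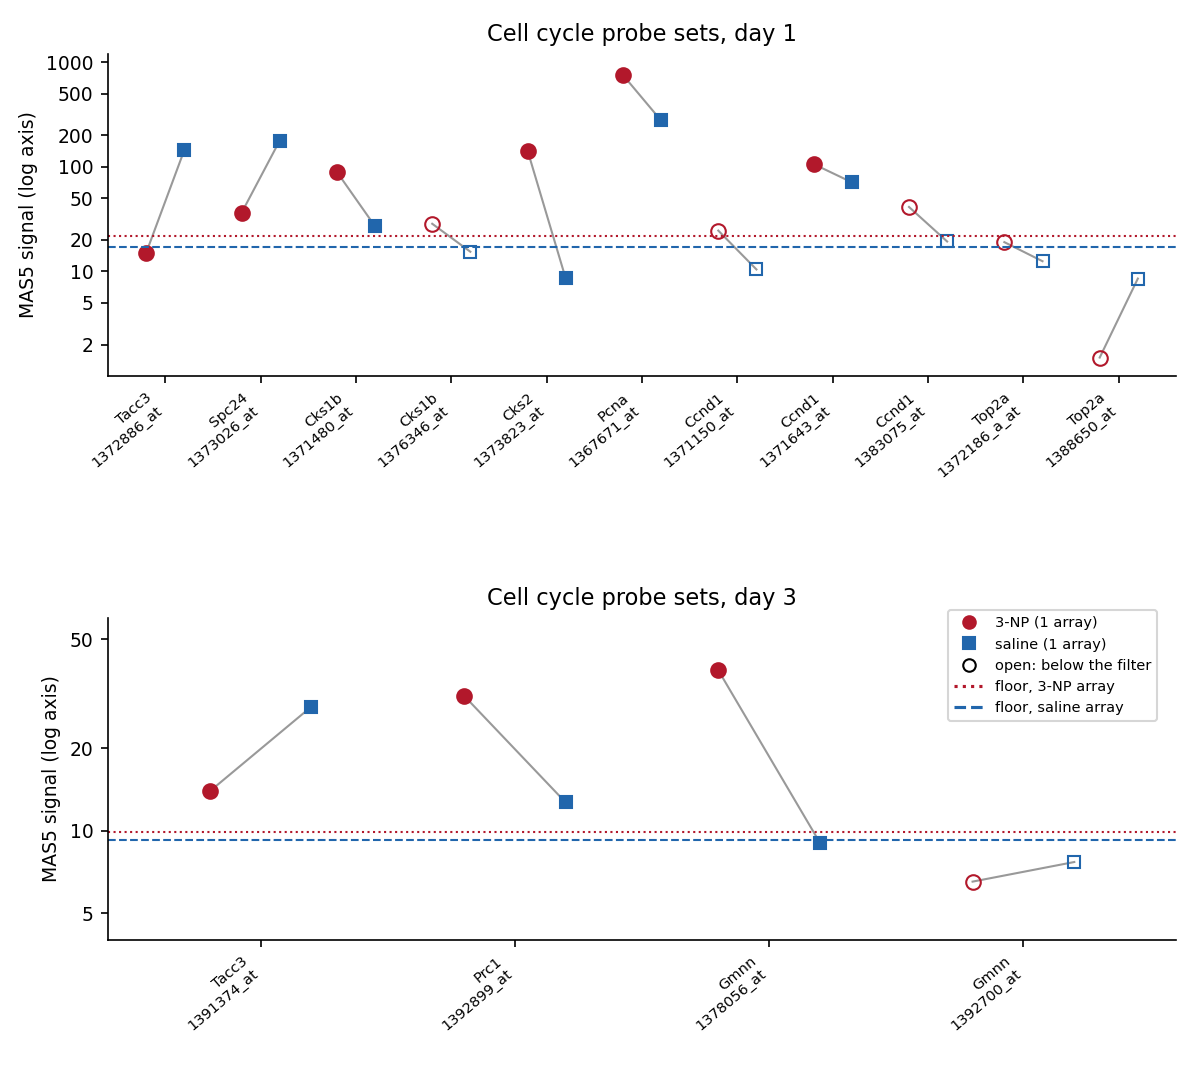
MAS5 signal (log axis) of each probe set of the 9 genes in the 3-NP array (circles) and the saline array (squares) of day 1 (top) and day 3 (bottom), 1 array per group. Open symbols are probe sets below the filter, and the dotted and dashed lines are the floors of the 3-NP and saline arrays. Tacc3, Spc24 and, under the floors, 1 probe set each of Top2a and Gmnn have the lower signal in 3-NP, and all others the higher.

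Cks1b and Cks2 encode small paralogous proteins that bind cyclin-dependent kinases, and Cks1b also serves the SCF-Skp2 ligase that marks the inhibitor p27 for destruction. Cks2 had 143 in 3-NP and 8.57 in saline, the saline signal being under the floor. It was at least 6.16-fold higher relative to the median gene, a log2 bound of 2.62, and its 3-NP signal lay above 70.9% of that array's probe sets. The brighter Cks1b probe set had 89.5 in 3-NP and 27.1 in saline, a relative log2 ratio of 1.29. The other Cks1b probe set, below the filter, had 28.6 in 3-NP and 15.4 in saline, where it was at the floor, and gave a lower bound of 0.30. Both Cks1b probe sets and the 1 of Cks2 were thus higher in 3-NP. Both genes lay in the dimmest of the 5 signal bins, where 14.0% of genes were at least 2-fold higher.

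Pcna encodes the sliding clamp that holds DNA polymerases on the template, in replication and in repair. Its signal was 755 in 3-NP and 278 in saline, above 95.9% and 89.8% of the probe sets of those arrays. The relative log2 ratio was 1.01, just past the 2-fold threshold, and 0.97 when the arrays were centred on the normalization probe sets that both designs share. In the brightest signal bin, where Pcna lies, 4.21% of genes were at least 2-fold higher. Pcna and Cks1b differ by 0.28 in their ratios, which is within the technical SD of a difference between probe sets at day 1, 0.50.

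Ccnd1 encodes cyclin D1, which drives the entry into S phase with Cdk4 and Cdk6. Its brightest probe set had 106 in 3-NP and 71.2 in saline, a relative log2 ratio of 0.14, or 0.58 as deposited. Another had 41.4 in 3-NP and 19.3 in saline, at 0.66, and the dimmest had 24.6 in 3-NP and 10.5 in saline, a lower bound of 0.08. All 3 values were above 0, and the 2 that are not bounds were under 2-fold relative to the median gene, although the probe set at 0.66 came to 1.10 as deposited.

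Top2a encodes topoisomerase II alpha, which untangles chromosomes before they separate. Its 2 probe sets had 19.1 and 1.50 in 3-NP and 12.5 and 8.55 in saline. All 4 signals were under the floors, so Top2a has no ratio here. It shared this with Mki67, the gene of the proliferation marker Ki-67, which had 1.24 in 3-NP and 3.49 in saline.

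**Figure D2:**
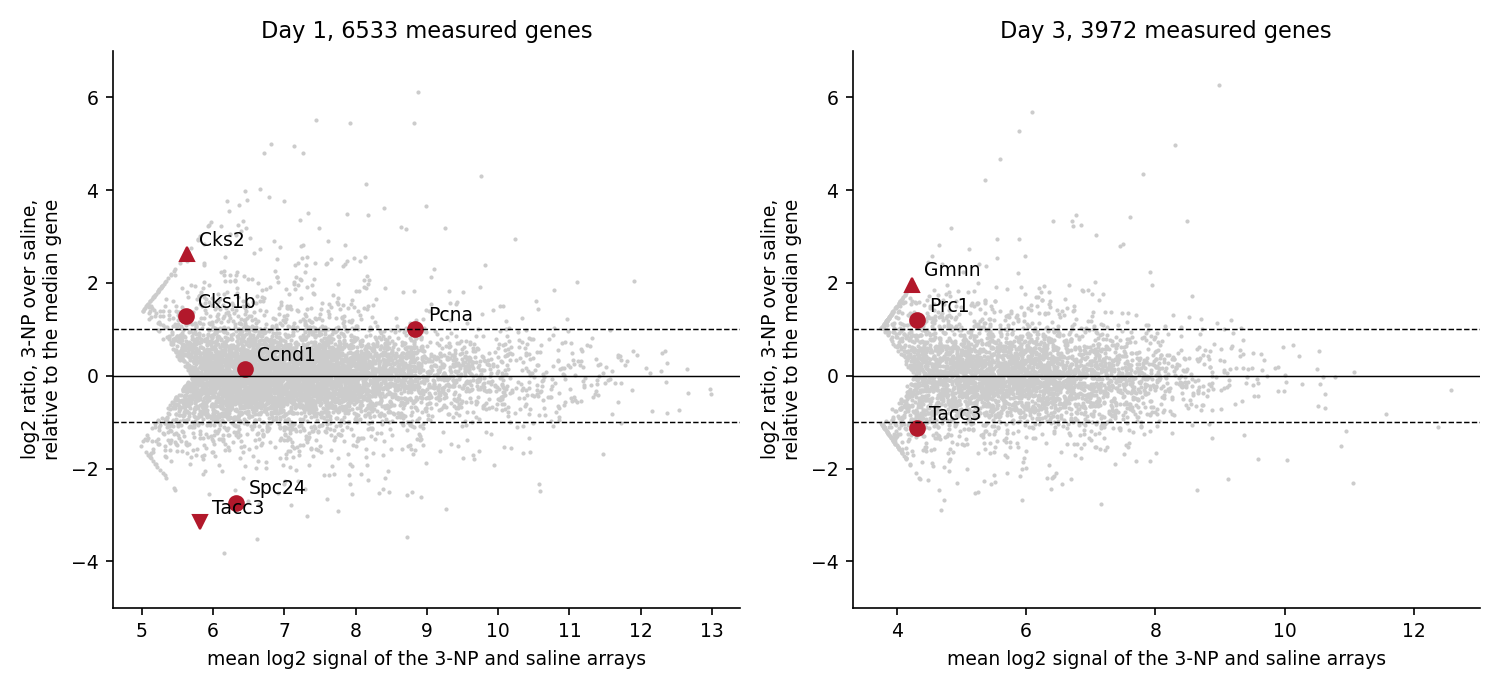
Log2 ratio of 3-NP over saline relative to the median gene, against mean log2 signal, for the 6533 genes measured at day 1 (left) and the 3972 at day 3 (right). Red marks are the genes described, triangles pointing up or down are bounds, and dashed lines mark 2-fold. Tacc3 and Spc24 lie at the lower edge of the day 1 cloud, and the 3 genes of day 3 lie among dim genes.

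At day 3, 3 of the genes could be read. Gmnn and Prc1 were at least 2-fold higher in 3-NP, and Tacc3 was again at least 2-fold lower, by a probe set other than that of day 1. The background at day 3 was 9.21% higher and 8.18% lower among 3972 genes (10.9% and 6.42% as deposited). All 3 passed through 1 array only and lay in the dimmest of 5 signal bins, where 18.6% of genes were at least 2-fold higher and 16.7% lower. Differences of this size were thus common among genes as dim as these.

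Tacc3 had 13.9 in 3-NP and 28.4 in saline at day 3, both above the floor. Its relative log2 ratio was -1.13, or 2.19-fold lower. On both days the saline array thus had the higher Tacc3 signal, from a different probe set and array design each time. The size of the difference was not compared between days.

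Prc1 encodes a protein that bundles microtubules at the spindle midzone for cytokinesis. It had 31.1 in 3-NP and 12.7 in saline, a relative log2 ratio of 1.20. Gmnn encodes geminin, which blocks the licensing factor encoded by Cdt1 after replication has begun. Its brighter probe set had 38.5 in 3-NP and 9.02 in saline, the saline signal being under the floor, and was at least 3.90-fold higher, a log2 bound of 1.96. The other Gmnn probe set had 6.51 in 3-NP and 7.68 in saline, both under the floor, and has no ratio. The Gmnn bound lay 0.77 above the Prc1 ratio, little more than the technical SD of a difference between probe sets at day 3, 0.67. No order of Gmnn and Prc1 was drawn from it. Prc1 passed the filter through the 3-NP array alone and Tacc3 through the saline array alone. This favours opposite sides, so the gap between Prc1 and Tacc3 is no result.

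The wider cell cycle was read through 5 lists, chosen with earlier results of these data known. At day 1, 63 of the 121 listed genes on the array passed the filter, of which 14 were at least 2-fold higher and 6 lower, with a median ratio of 0.14 against 0 for all genes. These are 22.2% and 9.52%, beside 7.76% and 6.47% of all genes. As deposited, 20 were higher and 4 lower, beside 17.9% and 2.62% of all genes. Without the 9 genes, 11 were higher and 4 lower of 57 relative to the median gene. Most of the higher genes passed the filter through the 3-NP array alone, which favours large differences, so the counts are no result about the lists. With the median signal required in both arrays, 5 of 44 were higher and 3 lower, beside 268 and 247 of 5584 genes. At day 3, 35 of 65 passed, with 5 higher and 2 lower (14.3% and 5.71%, beside 9.21% and 8.18% of all genes) and a median of 0.07. Without the 9 genes, 3 were higher and 1 lower of 32 at day 3, with a median of 0.01. With the median signal required in both arrays, 0 of 25 were higher or lower at day 3, beside 183 higher and 165 lower of 3269 genes.

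Among genes of G1 and S phase entry at day 1, 2 of 11 were at least 2-fold higher and 1 lower, beside 7.76% and 6.47% of all genes. The 2 higher genes, Myc and E2f5, passed the filter through the 3-NP array alone. Myc, a growth-promoting transcription factor gene, had 86.8 in 3-NP and 11.8 in saline, a lower bound of 1.90 on the log2 scale. E2f5, of the repressing E2F branch, had 108 in 3-NP and 37.0 in saline, at 1.11. Rbl2 encodes the pocket protein p130 of the DREAM complex in resting cells, and had 65.9 in 3-NP and 176 in saline, at -1.86. At day 3 none of 4 such genes was 2-fold apart, and Tfdp2, an E2F partner gene, lay furthest from 0 at -0.82.

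Of 20 replication and licensing genes at day 1, 4 were at least 2-fold higher and 0 lower, with a median of 0.14, beside 7.76% higher and 6.47% lower among all genes. Besides Pcna these were Ung, a uracil-removing repair gene (1.72), Pole, the catalytic subunit of DNA polymerase epsilon (1.33), and Pola2, a subunit of polymerase alpha (1.07). Ung had 118 in 3-NP and 26.3 in saline. Ung, Pole and Pola2 passed the filter through the 3-NP array alone, which favours large differences, and Pcna passed through both arrays. At day 3, 2 of 10 were higher and 1 lower, beside 9.21% and 8.18% of all genes, and each of them passed through 1 array only. Cdt1, whose product geminin holds back, had 55.8 in 3-NP and 13.5 in saline, both above the floor, at 1.95, next to the bound of 1.96 for Gmnn. Pole2, an accessory subunit of polymerase epsilon, had 3.63 in 3-NP, under the floor, and 23.2 in saline, an upper bound of -1.34.

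Of 9 genes of mitotic entry and exit at day 1, 3 were higher and 0 lower, with a median of 0.50, beside the same 7.76% and 6.47%. Without Cks1b and Cks2, which passed the filter through the 3-NP array alone, 1 of 7 was higher. This was Cdc25b, the phosphatase gene that helps to activate Cdk1, with 85.1 in 3-NP and 24.2 in saline, at 1.37. Cdc25b too passed through the 3-NP array alone, since the median signal of the saline array was 44.9. A further 15 genes of this list on the array did not pass the filter, and 7 of the 24 were at the floor in both arrays. At day 3, 2 of 8 were higher and 0 lower, beside 9.21% and 8.18% of all genes, and the 2 passed through the 3-NP array alone. Mybl2, which encodes B-Myb, had 35.5 in 3-NP and 5.36 in saline, a lower bound of 1.84. Mad2l1, a spindle checkpoint gene, had 25.5 in 3-NP and 9.90 in saline, at 1.26, and 0.44 by another probe set below the filter.

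Of 26 genes of chromosome structure, kinetochore, spindle and cytokinesis on the day 1 array, 7 passed the filter and 13 were at the floor in both arrays. Tacc3 and Spc24 were the 2 lower genes of the 7 and 0 were higher, beside 6.47% lower and 7.76% higher among all genes. Tacc3 and Spc24 passed the filter through the saline array alone, which favours large differences. As deposited, Lmnb1 (1.35) and Tubb5, a tubulin gene (1.05), were at least 2-fold higher. The other 5 ran from -0.25 for Stmn1, a tubulin-binding gene, to 0.91 for Lmnb1, which encodes lamin B1, with a median of 0.16. At day 3, 8 of 26 passed, with Prc1 higher and Tacc3 lower, beside 9.21% higher and 8.18% lower among all genes. The other 6 lay between -0.65 (Zwilch, a kinetochore gene) and 0.58 (Cenpk, a centromere gene). Nuf2, of the NDC80 complex with Spc24, was at 0.38 at day 3, with 24.6 in 3-NP and 17.7 in saline.

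**Figure D3:**
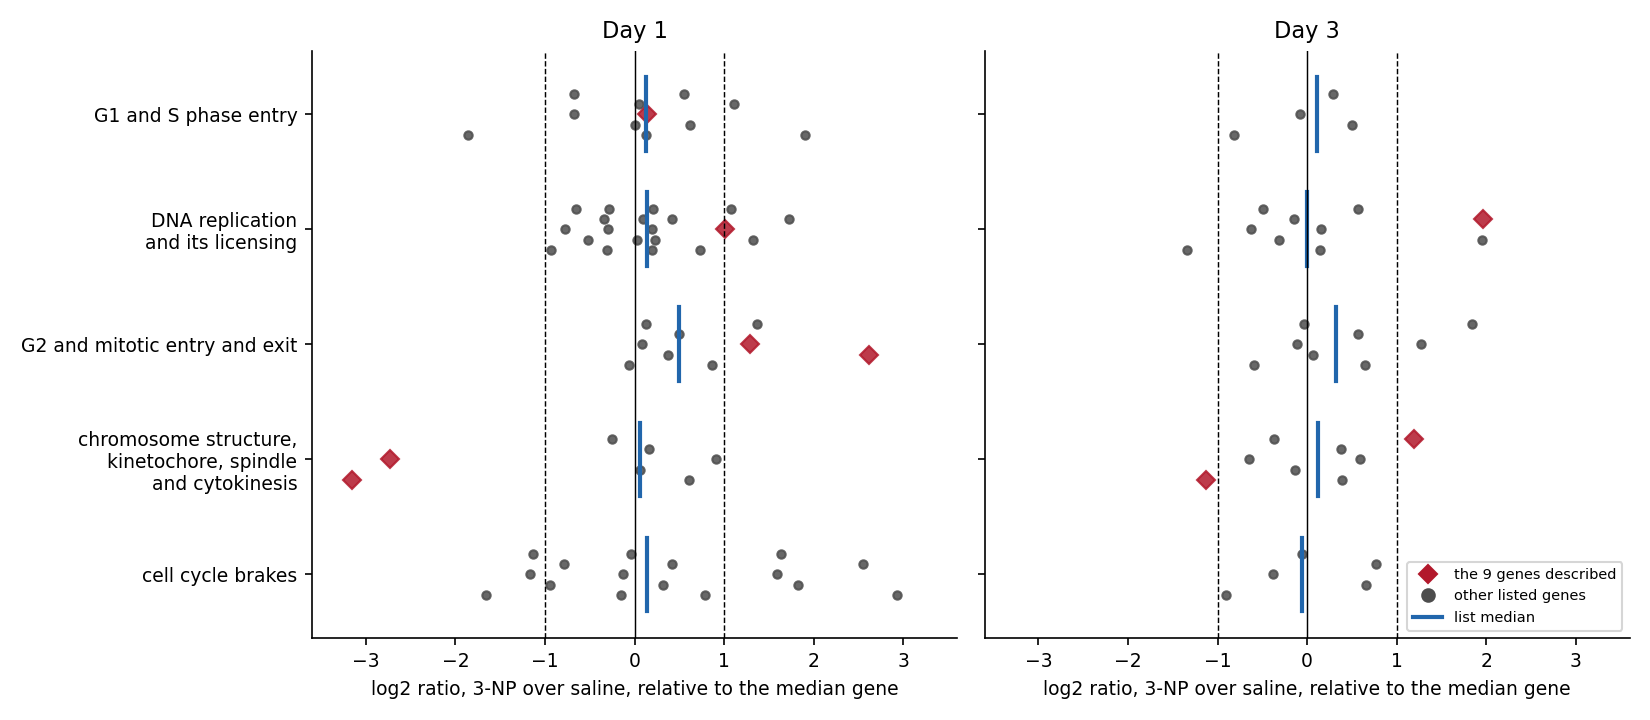
Log2 ratio of 3-NP over saline relative to the median gene for the measured genes of 5 cell cycle lists at day 1 (left) and day 3 (right). Diamonds are the genes described, dots the other listed genes, blue bars list medians and dashed lines 2-fold. Tacc3 and Spc24 stand apart from the other 5 spindle and kinetochore genes measured at day 1. They passed the filter through the saline array alone. The list of brakes spreads to both sides at day 1.

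The list of cell cycle brakes went both ways at day 1, with 5 of 16 at least 2-fold higher, 3 lower and a median of 0.14 (6 higher and 1 lower as deposited). Among all genes, 7.76% were higher and 6.47% lower, or 17.9% and 2.62% as deposited. Gadd45g and Sesn1, described next, passed the filter through 1 array only. Cdkn1a, which encodes the CDK inhibitor p21, had 566 in 3-NP and 118 in saline, at 1.83, and a lower bound of 2.24 by another probe set. The growth arrest genes Gadd45g (a lower bound of 2.93), Gadd45b (2.55) and Gadd45a (1.63), and Mdm2 (1.59), were the other higher ones. Mdm2 encodes the p53 ligase and is on the list without being a brake itself. Cdkn1c, which encodes the CDK inhibitor p57, had 856 in 3-NP and 1998 in saline, at -1.66. Ccng2, encoding cyclin G2, was at -1.17 and Sesn1, a p53 target, at -1.13, and both were under 2-fold as deposited, at -0.73 and -0.69. At day 3, 0 of 5 genes of this list were 2-fold apart, Cdkn2c (p18) being furthest from 0 at -0.90 and Mdm2 at 0.77.

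Of the listed genes, 9 were measured on both days, 8 of them with a ratio of the same sign each time, against 71.6% of the 1246 genes measured on both days. Of the 9, 6 had a ratio within the technical SD of a single probe set (0.35 at day 1 and 0.47 at day 3) on at least 1 day. The 3 past it on both days were Tacc3, Mdm2 and Dut, a nucleotide-cleaning dUTPase gene, at -0.66 at day 1 and -0.63 at day 3. The sign differed for Lig1, the replicative DNA ligase gene, at 0.23 at day 1 and -0.31 at day 3, both within that SD.

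Among markers of the labelled tissue, Gjb6, of the fibrocyte gap junctions, had 761 in 3-NP and 3139 in saline at day 1, and Coch, the cochlin gene, 5677 in 3-NP and 6548 in saline at day 3. Pou3f4, a fibrocyte transcription factor gene, was dimmer, with 87.2 in 3-NP and 140 in saline at day 1. Markers of other cells differed beside the cell cycle genes at day 1. The counts are relative to the median gene, but the sums are of signals as deposited. The median signal at day 1 was 60.7 in 3-NP and 44.9 in saline. Among 9 markers of fibrocytes, 6 lay 2-fold or more lower and 1 higher, with summed signals of 7757 in 3-NP and 13353 in saline. Of 5 markers of the stria vascularis and its melanocytes, which a label field says was removed, 4 were lower and 0 higher, with sums over 6 genes of 1096 in 3-NP and 2195 in saline. Of 9 bone and cartilage markers 7 were lower and 0 higher, with sums over 11 genes of 5683 in 3-NP and 8296 in saline. Of 9 Schwann cell and neuron markers 3 were higher and 1 lower, with sums of 10199 in 3-NP and 10259 in saline. Divided by the median signal of their array, these sums were 168 in 3-NP and 229 in saline. The 1 lymphocyte marker measured was under 2-fold, and 4 of 8 on the array were at the floor in both arrays. Of 6 endothelial and mural markers 4 were higher and 1 lower, with sums over 10 genes of 972 in 3-NP and 429 in saline. Of 11 macrophage and monocyte markers 2 were higher and 0 lower, with sums over 16 genes of 3901 in 3-NP and 1999 in saline. Divided by the array medians, the macrophage sums were 64.2 in 3-NP and 44.5 in saline. Ptprc, Aif1, Itgam and Ccr2 were at the floor in both arrays. At day 3 the array held 2 macrophage markers, both lower, with sums of 43.5 in 3-NP and 85.7 in saline. Of 5 stria and melanocyte markers 3 were lower and 1 higher at day 3, with sums of 1587 in 3-NP and 3376 in saline. The other cell types had 2 or fewer measured markers at day 3, of which 1 fibrocyte marker was lower and 1 Schwann cell and neuron marker higher. The part of cell composition in the cell cycle ratios was not tested, and in these bulk samples fewer cells of a type and less RNA per cell cannot be told apart.

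Across the processing settings the genes kept their sides of the median gene. With a floor at the 20th percentile the day 1 bound of Cks2 was 3.43. Both day 1 signals of Tacc3 lay above that floor, and its ratio was -3.71, no longer a bound. With a floor at the 40th percentile the day 1 bounds were -2.38 for Tacc3 and 1.90 for Cks2. Spc24, with both signals above the floor, ran from -2.77 to -2.29. The Tacc3 ratio at day 3 ran from -1.16 to -1.03 and that of Prc1 from 1.10 to 1.30. With the floor at the 40th percentile, the dimmer signals of Spc24, Tacc3 at day 3 and Prc1 lay under it. Their values at that floor were therefore bounds, among them the 1.10 of Prc1.

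**Figure D4:**
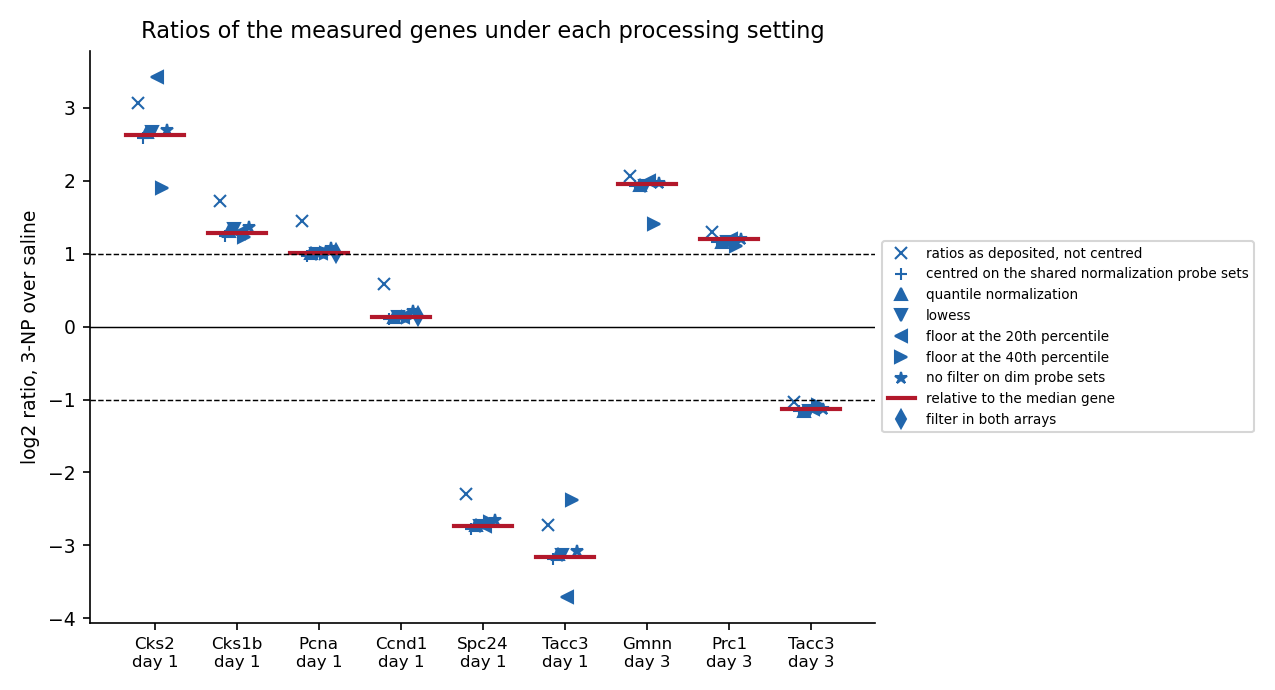
Log2 ratio of 3-NP over saline for each measured gene (red bars, relative to the median gene) and under each alternative setting that gives a value (blue symbols), with dashed lines at 2-fold. No gene changes sides, the values of Cks2, Tacc3 at day 1 and Gmnn move with the floor, and Pcna stays close to the 2-fold line except as deposited.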

How the data were processed

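RNA of 4 samples was measured on Affymetrix arrays, from 6 µg of biotin-labelled total RNA per the labels' protocols. The authors deposited linear signal intensities made by MAS5 (source: the submitters' processing notes). The sources used here give no scaling target, detection calls or build. The precision is limited by 1 array per group, and no test was run.

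Genes came from the platform annotation, updated by gene identifier to RefSeq GRCr8. Of the probe sets outside the controls 12783 of 15866 had 1 symbol at day 1 and 7564 of 15276 at day 3, 312 and 100 had several, and 2771 and 7612 had none. Floor, filter and centring are described in the report. A gene was counted as higher or lower from a relative log2 ratio of 1 upwards in size. Technical spread is the SD between the brightest and next probe set of a gene, divided by the square root of 2 for a single one (744 genes at day 1 and 805 at day 3). Both probe sets lie on the same pair of arrays, so it covers differences between probe sets, not between hybridisations or animals.

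The 9 genes and all lists were chosen with earlier results of these data known. Named genes are those 9, every listed gene at least 2-fold apart and, in a list with none, the one furthest from 0. Ckap5, Spc25, Nuf2, Mki67, Stmn1, Lmnb1, Tubb5, Dut, Pou3f4, Zwilch, Cenpk, Lig1, Gjb6 and Coch were added after their values were seen. Alternatives were other centring, quantile normalization, lowess, other floors and filters, and means over probe sets. The processing was tested on simulated data with changes placed in brighter probe sets only, so that test does not cover dim genes. Python 3.11.15, pandas 2.3.3 and statsmodels 0.14.6 were used.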

Additional observations from a re-analysis of the deposited data

Results flagged for a closer look

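Lig1, the replicative DNA ligase gene, lay on opposite sides of the median gene on the 2 days, with a relative log2 ratio of 0.23 at day 1 and -0.31 at day 3. Its array signals were 107 in 3-NP and 67.4 in saline at day 1, and 29.5 in 3-NP and 34.2 in saline at day 3. The difference between days was not tested, and the days lie on separate array designs.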

How the results depend on the processing

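No ratio of the 9 genes that was past 2-fold changed direction under any alternative run. Most shifts of counts came with the requirement that a gene reach the median signal of both arrays, which leaves fewer genes. Under it the 9-gene list had 1 higher and 0 lower genes at day 1 (Pcna and Ccnd1 remained measured), and 0 higher and 0 lower at day 3, where none was left. The 5 lists then had 5 higher and 3 lower of 44 genes at day 1, and 0 and 0 of 25 at day 3. Over all genes, 268 were higher and 247 lower of 5584 at day 1, and 183 and 165 of 3269 at day 3. As deposited, without centring, 1169 of all genes were higher and 171 lower at day 1, and 433 and 255 at day 3. The 5 lists had 20 higher and 4 lower at day 1 as deposited, and the 9 genes the same 3 higher and 2 lower in number as after centring. With a floor at the 40th percentile the 5 lists had 1 lower gene at day 3. Centred on the 100 shared normalization probe sets, 2 of the 9 genes were higher at day 1, since Pcna came to 0.97. Of 108 alternative counts, 93 were within 1.5 times the count reported. No paired analysis was possible because each group has 1 array and the labels give no replicate numbers. For the same reason no array could be left out. Signal over background limits most mitotic genes, which lay at or near the floor.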
